A study of Mus musculus with 78 samples.

Results

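The cytoplasmic ribosomal protein genes were examined in single blastomeres of mouse 4-cell and 8-cell embryos. Members were the mouse protein-coding genes whose symbol is Rpl or Rps followed by a digit, together with Rplp0, Rplp1, Rplp2 and Rpsa, and without the Rps6k kinases and pseudogenes. Of 89 annotated genes that meet this rule, 87 had a row in both gene tables, out of 13604 genes listed in both. These 87 were 76 canonical ribosomal proteins (45 of the large and 31 of the small subunit), 9 paralogues or retrocopies and 2 genes matched by name only. Rpl26 had a row in the 8-cell table alone, and Rps27rt had none in either.

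All embryos came from a cross that gave each of them one copy of the Brainbow2.1 cassette at the Rosa26 locus and one copy of the Cre/Esr1* transgene, both driven by the CAG promoter. A 2-hour exposure to 4-hydroxytamoxifen at the 2-cell stage, applied to every embryo, switched on the fluorescent label, so no group without cassette, Cre or drug was compared. Blastomeres were dissociated and sequenced one by one with the full-length Smart-seq2 protocol. The labels describe 36 4-cell and 31 8-cell blastomeres, of which 24 and 26 were assigned to a lineage. There are 24 columns of 4-cell and 26 of 8-cell values, and no column name matches a labelled sample. Embryo and lineage were therefore not assigned to any column, and the order of the columns was not tested against the labels. Each stage was accordingly treated as 1 sample. Single blastomeres, or the lowest, median and highest of a stage, are therefore reported, and no test between stages was made.

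A ribosome joins a large and a small subunit, each built from ribosomal RNA and a set of proteins present mostly in one copy. The small subunit decodes the messenger RNA, and the large subunit forms the peptide bond. In many cells the ribosomal protein messages are abundant, are made in similar amounts and share a pyrimidine-rich start through which their translation responds to growth signals. In the mouse embryo, maternal ribosomes are inherited from the egg, and new ribosomal RNA and ribosomal protein messages are made after the embryonic genome is activated.

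The depth behind these values differed between blastomeres. The fragments that entered the FPKM denominator (fragments scaled by exon length and by the library total) were estimated at 6.87 M to 16.9 M in 4-cell and 2.34 M to 21.8 M in 8-cell blastomeres. Genes above an FPKM of 1 numbered 3009 to 8276 at the 4-cell stage, where the blastomeres S18 (3009 genes) and S20 (3699 genes) had the fewest. At the 8-cell stage the range was 3548 to 8078, with the lowest number in the shallowest blastomere, S57. All 8 embryo and oocyte markers examined (Pou5f1, Dppa3, Zp3, Gdf9, Bmp15, Nlrp5, Tead4 and Obox3) were listed, with summed levels of 1443 to 5105 FPKM in 4-cell and 2747 to 10411 in 8-cell blastomeres. Of these 8, 6 had a median above 1 FPKM at the 4-cell stage and 4 at the 8-cell stage. Of 8 cumulus cell markers, 3 were listed. Their sum had a median of 0 in both stages and did not exceed 2.69 FPKM in 4-cell and 9.51 FPKM in 8-cell blastomeres.

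Most canonical members were among the abundant transcripts. Their median levels had a median of 409 FPKM in 4-cell and 454 FPKM in 8-cell blastomeres. Of the 15218 genes listed at the 4-cell stage 177 had a median above this value, as had 143 of the 15342 listed at the 8-cell stage. Of the 76 canonical members, 70 exceeded 100 FPKM at the 4-cell stage and 71 at the 8-cell stage, and 3 lay under 10 FPKM in each. The order of the members was similar between stages, with a Spearman correlation of 0.96 across the 76 genes.

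The highest level in both stages was that of Rpl41, which encodes the shortest ribosomal protein. It ranged from 778 to 3379 FPKM with a median of 2479 in 4-cell blastomeres, and from 1259 to 4097 with a median of 2020 in 8-cell blastomeres. Rplp0, the base of the stalk that recruits elongation factors, had medians of 1117 and 1310 FPKM, with a 4-cell range of 251 to 1738 FPKM. Also among the highest at the 4-cell stage were the small subunit genes Rps14 (984 FPKM) and Rps26 (898 FPKM), whose values overlapped those of Rplp0. Among the highest at the 8-cell stage were the large subunit genes Rpl4 and Rpl7, each with a median of 1181 FPKM.

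**Figure D1:**
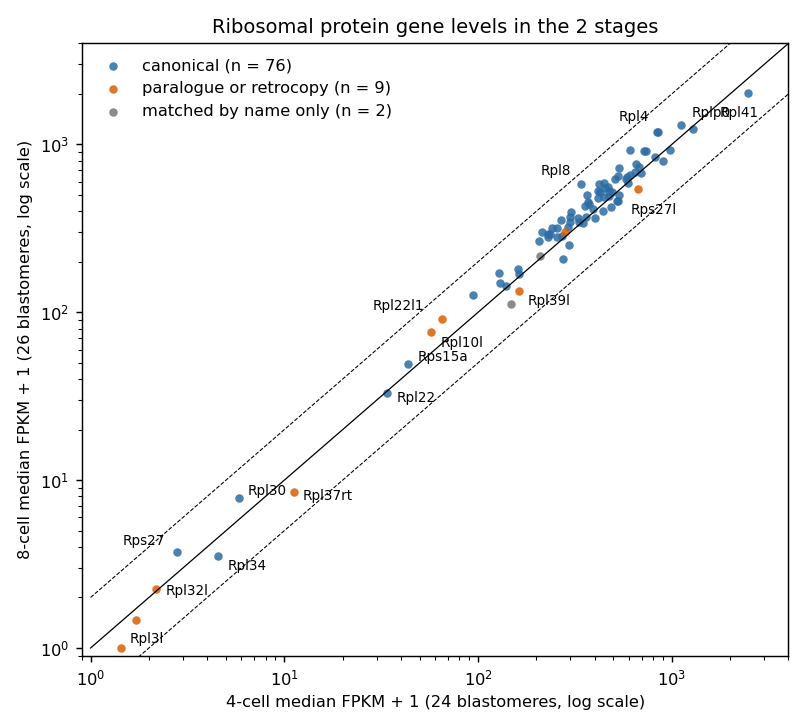
Median FPKM of the 87 members in 4-cell (horizontal) and 8-cell blastomeres (vertical), both plus 1 and on log scales, with points coloured by class. The solid line marks equal levels and the dashed lines a 2-fold difference; every member lies between the dashed lines, and Rps27, Rpl34 and Rpl30 are the canonical members under 10 FPKM.

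The 3 lowest canonical members had levels far below the rest. Rps27, a small subunit protein with a zinc finger, ranged from 0 to 10.01 FPKM with a median of 1.79 in 4-cell blastomeres and from 0 to 17.3 with a median of 2.71 in 8-cell blastomeres. These values rest on few reads, with a median of 15.5 fragments per blastomere in 4-cell and 23.6 in 8-cell blastomeres. Rpl34 had medians of 3.55 and 2.54 FPKM, and Rpl30 had medians of 4.81 and 6.81 FPKM. Both encode large subunit proteins. The next members in the order were Rpl22, also of the large subunit, with medians of 33.1 and 31.98 FPKM, and Rps15a of the small subunit with medians of 42.6 and 48.1 FPKM. Rpl26, listed only at the 8-cell stage, was at 0 in every blastomere but S63, where its 0.198 FPKM amounts to about 2.01 fragments.

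Only uniquely aligned reads were counted, and ribosomal protein genes have many processed copies in the mouse genome. In 73 of the 76 canonical members some 100-base windows of the transcript occur unchanged elsewhere in the genome, and in 32 members this holds for more than 50% of the windows. This share was 43.7% for Rps27, 24.2% for Rpl34 and 48.4% for Rpl30, and it was 0% for Rpl22 and 3.08% for Rps15a. Other members had a larger share and a high level. Rpl10, with 94.4% of its windows repeated elsewhere, had medians of 718 and 914 FPKM, and Rpl28, with 100%, had 229 and 278 FPKM. Across the 76 members the share of repeated windows and the median level had a Spearman correlation of 0.03 in 4-cell and 0.04 in 8-cell blastomeres. A read that falls wholly within such a window has more than 1 place in the genome, and the part this takes in the levels was not tested.

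Of the 9 paralogues and retrocopies, some reached the levels of canonical members. Rps27l, the paralogue of Rps27, ranged from 183 to 1201 FPKM with a median of 671 in 4-cell blastomeres, and from 167 to 1165 with a median of 542 in 8-cell blastomeres. The lowest Rps27l value in either stage therefore lay above the highest value of Rps27. The coding sequences of this pair were identical at 61.0% of aligned positions, and none of the windows of Rps27l occurs elsewhere. Rpl36al had medians of 279 and 301 FPKM, Rpl39l of 161 and 133 FPKM, Rpl22l1 of 63.8 and 90.6 FPKM, and Rpl10l of 56.3 and 75.2 FPKM. Rpl22l1 thus had a higher median than Rpl22 in both stages, while its 4-cell range of 0 to 174 FPKM contained the whole range of Rpl22 (6.14 to 57.6 FPKM). Other copies had lower levels. Rpl37rt had medians of 10.2 and 7.46 FPKM, Rpl32l of 1.19 and 1.24 FPKM, and Rps23rg1 of 0.715 and 0.470 FPKM. The coding sequences of Rpl37rt and Rpl32l were identical to those of Rpl37 and Rpl32 at 99.7% and 95.8% of aligned positions. With unique reads alone counted, the part of this in the low levels of Rpl37rt and Rpl32l was not tested. Rpl3l, the paralogue of Rpl3 known from striated muscle, had a 4-cell median of 0.431 FPKM and was above 0 in 16 of 24 4-cell and 9 of 26 8-cell blastomeres. Both genes matched by name only were well expressed, Rpl7l1 with medians of 207 and 216 FPKM and Rps19bp1, a protein that binds Rps19, with medians of 147 and 111 FPKM.

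The share of the members together varied more between 4-cell than between 8-cell blastomeres. Their part of the summed FPKM of a blastomere ranged from 4.49% to 12.2% with a median of 8.08% (SD 1.68 over 24 blastomeres) at the 4-cell stage. At the 8-cell stage the share ranged from 6.96% to 12.3% with a median of 9.48% (SD 1.26 over 26 blastomeres). The ranges overlapped, and the medians differed by 1.41 percentage points. The lowest shares belonged to the 4-cell blastomeres with the fewest genes, 4.49% in S18 and 5.90% in S20. In the paper's sample order, the same places hold the highest mitochondrial mapping rates of lineage-resolved 4-cell blastomeres, but that order was not tested. Without S18 and S20, the 4-cell share ranged from 6.82% to 12.2% with a median of 8.29% (SD 1.44). The 8-cell blastomere with the fewest genes, S57, had a share of 10.7%. Across the blastomeres of a stage, the share had a Spearman correlation of -0.07 (n = 24) and 0.12 (n = 26) with the estimated depth, of 0.29 and -0.05 with the number of genes above 1 FPKM, and of 0.79 and 0.76 with the summed FPKM, which is its own denominator. The part of these in the differences was not tested.

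The balance of the subunits had a narrow range. The summed FPKM of the canonical large subunit genes over that of the small subunit genes had a median of 1.29 at the 4-cell stage (range 1.22 to 1.497) and 1.34 at the 8-cell stage (range 1.30 to 1.481). The order of the members was likewise alike between blastomeres. The Spearman correlation of the 76 canonical levels of a blastomere with the medians of the other blastomeres of its stage ranged from 0.72 to 0.97 in 4-cell and from 0.87 to 0.98 in 8-cell blastomeres.

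**Figure D2:**
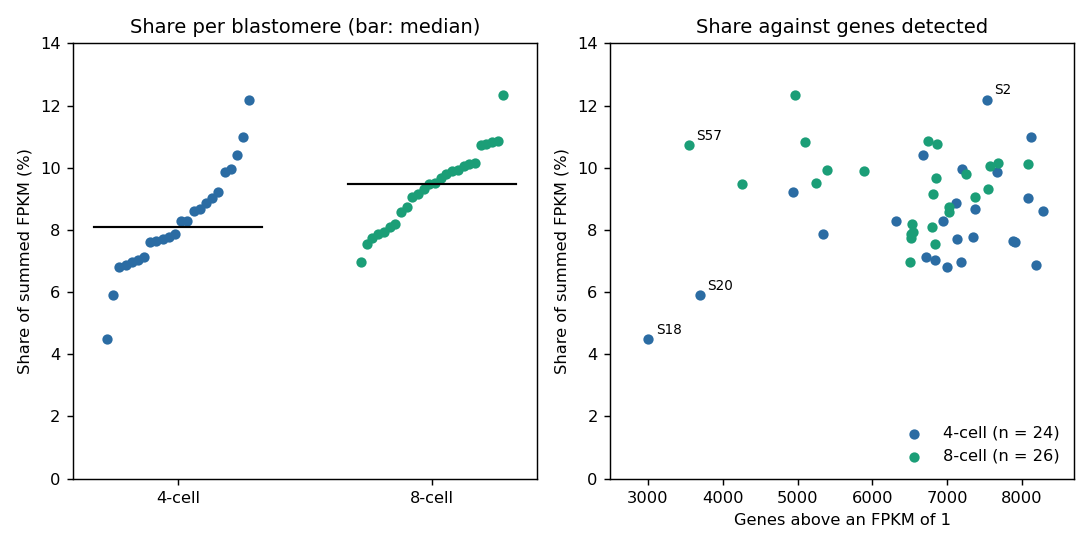
Share of the summed FPKM held by the members in each blastomere, sorted by value within the stage with the median as a bar (left), and against the number of genes above an FPKM of 1 (right). S18 and S20 hold the lowest shares, 4.49% and 5.90%, and the other blastomeres of both stages lie between 6.82% and 12.3%.

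The X-linked members separated 4 of the 24 4-cell blastomeres from all others. Of the canonical members 4 lie on the X chromosome, Rpl10, Rpl36a and Rpl39 of the large subunit and Rps4x of the small subunit. Rpl10, which is needed for a late step of large subunit maturation, was at 8.87 FPKM in S13, 11.3 in S14, 0.0826 in S15 and 3.72 in S16. In the other 20 4-cell blastomeres it ranged from 266 to 1395 FPKM, and its lowest 8-cell value was 649 FPKM. The 4 blastomeres thus lay below every other one, with no overlap.

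Rps4x of the small subunit was at 0.171 FPKM in S13, 0 in S14, 0.0748 in S15 and 0.0733 in S16, which corresponds to 2.23, 0, 1.11 and 1.12 fragments. Elsewhere at the 4-cell stage it ranged from 295 to 1370 FPKM. Rpl39, which lines the exit tunnel, was at 0.190, 0.151, 0 and 0 FPKM in S13, S14, S15 and S16, against 176 to 865 FPKM in the other 20. Rpl36a, near the exit site for transfer RNA, was at 0 in all 4, against 104 to 617 FPKM in the other 20. A count of 0 allows up to 0.457, 0.364, 0.40 and 0.392 FPKM of Rpl36a in S13, S14, S15 and S16, the value of 3 fragments. Such limits cover counting error only, since reads without molecular identifiers are not independent molecules. The 4 genes together held 0.00222%, 0.00263%, 3.49e-05% and 0.00100% of the summed FPKM in S13, S14, S15 and S16, and between 0.333% and 0.896% in the other 4-cell blastomeres.

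Autosomal copies exist for 3 of these genes, and the coding sequences differ within each pair. Rpl10 and Rpl10l were identical at 84.8% of 645 coding positions, Rpl36a and Rpl36al at 87.9% of 321, and Rpl39 and Rpl39l at 85.3% of 156. The first 30 coding bases of each gene are given below 5′ to 3′ from the GRCm38.p6 genome with RefSeq coding regions, as they show how often a read from the X-linked gene meets a base that its copy lacks. Capitals mark the bases that differ within a pair.
Rpl10: atgggCcgCcgCccCgcCcgGtgttaccgg
Rpl10l: atgggTcgTcgTccGgcTcgCtgttaccgg
Rpl36a: atggtGaacgtGccTaaaacccgCCggacA
Rpl36al: atggtCaacgtAccAaaaacccgAAggacT
Rpl39: atgTcttctcacaagacTttcCgAatcaag
Rpl39l: atgGcttctcacaagacCttcAgGatcaag
The pairs differ at 6, 6 and 4 of these bases. This compares each gene with its named copy only. Of the 100-base windows of Rpl10, Rpl36a and Rpl39, 94.4%, 91.8% and 34.9% occur unchanged elsewhere in the genome.

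The autosomal copies were present in the same 4 blastomeres. Rpl36al was at 246, 252, 222 and 189 FPKM in S13, S14, S15 and S16, against a median of 290 FPKM (range 0 to 515) over the other 20. Rpl39l was at 195, 159, 200 and 128 FPKM, against a median of 161 FPKM (range 0 to 283). Rpl10l was at 13.7, 6.25, 37.5 and 33.9 FPKM, against a median of 62.6 FPKM (range 0 to 147). All 4 values of Rpl36al and of Rpl10l thus lay below the median of the other 20, and those of Rpl39l lay on both sides of it.

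The autosomal canonical members were detected in these blastomeres. The median over the 72 autosomal canonical members was 406 FPKM in S13, 368 in S14, 389 in S15 and 315 in S16, within the 291 to 666 FPKM of the other 4-cell blastomeres apart from S18 and S20. Of these 72 members, 3, 8, 4 and 18 lay below the range of the 18 other blastomeres in S13, S14, S15 and S16, against 63 in S18 and 53 in S20. Among the 18 themselves, the number below the range of the rest went from 0, as in S1, to 15 in S22. The share of all members was 7.60%, 6.82%, 7.11% and 6.96% of the summed FPKM, beside 6.88% to 12.2% in the 18 others, so that S14 lay below all of these.

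Other X-linked genes were low in the same blastomeres. Of 113 X-linked genes outside the family with an 8-cell median above 10 FPKM, 91, 101, 102 and 99 were under 1 FPKM in S13, S14, S15 and S16. This number was 0 to 13 in the other 4-cell blastomeres, except for 50 in S18 and 41 in S20, and 1 to 29 in the 8-cell blastomeres. Of 3895 autosomal genes chosen in the same way, 1.98%, 5.49%, 7.03% and 6.24% were under 1 FPKM in these 4 blastomeres, within the 0.950% to 20.9% of the 18 blastomeres other than S18 and S20. In S18 and S20 the autosomal shares were 52.2% and 41.2%, beside X-linked shares of 44.2% and 36.3%. The Y-linked genes Ddx3y and Eif2s3y were at 18.9 and 29.3 FPKM in S13, 14.02 and 0 in S14, 0.675 and 37.4 in S15, and 21.99 and 29.5 in S16. One or both exceeded 1 FPKM in 12 of the 24 4-cell blastomeres, these 4 included. The cause of the missing X-linked transcripts was not tested, and no embryo was assigned to these blastomeres. Taken in order, their columns fall at the places of 4 labelled blastomeres of the same embryo, but that order was not tested.

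**Figure D3:**
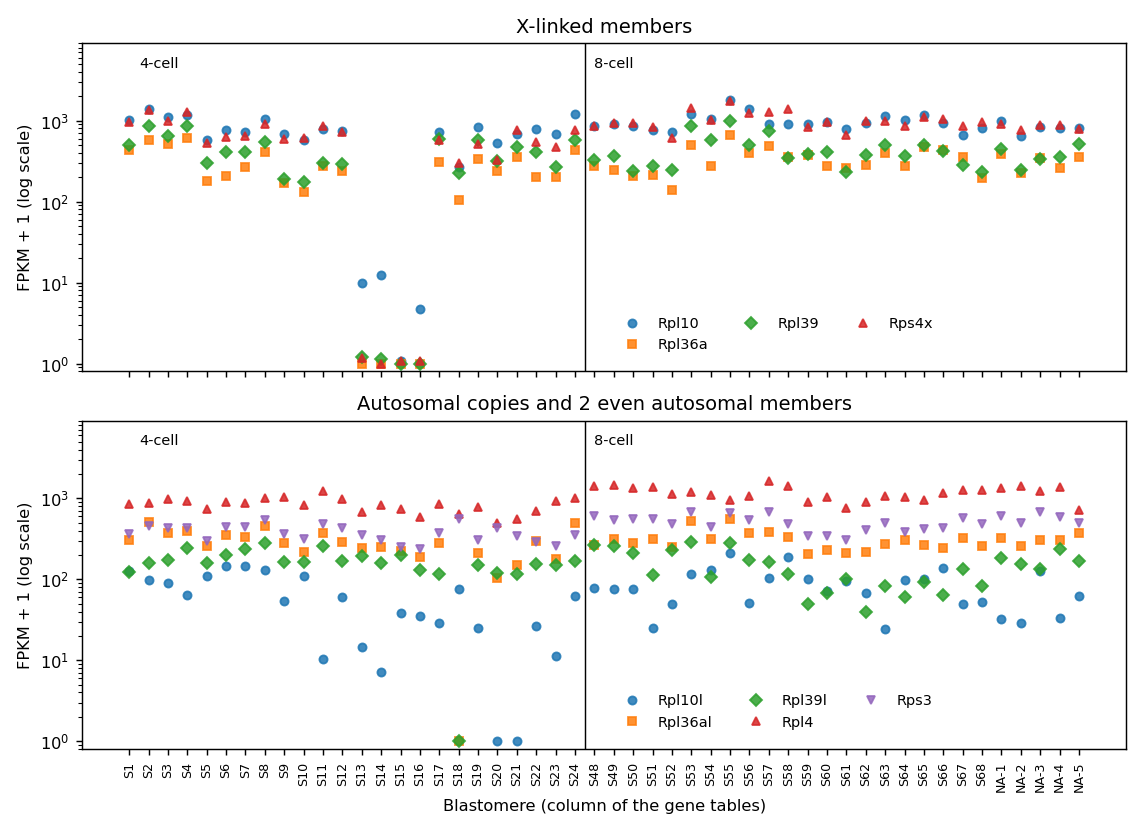
FPKM plus 1 on a log scale in each of the 24 4-cell and 26 8-cell blastomeres, for the 4 X-linked canonical members (top) and for 3 autosomal copies with 2 evenly expressed autosomal members, Rpl4 and Rps3 (bottom). The X-linked genes lie between 0 and 11.3 FPKM in S13 to S16 and above 100 FPKM in every other blastomere, whereas the lowest value of the autosomal genes there is the 6.25 FPKM of Rpl10l in S14.

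Evenness was measured as the SD over blastomeres of log2(FPKM + 1). The median SD of the 76 canonical members was 0.64 in 4-cell and 0.40 in 8-cell blastomeres. For 899 other genes whose stage medians average above 100 FPKM it was 0.77 and 0.57. For the 212 above 300 FPKM, a level closer to that of the members, it was 0.57 and 0.41. The median SD of the members was thus below that of the wider group in both stages, and at the 4-cell stage above that of the genes over 300 FPKM.

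The larger 4-cell spread rested on a few blastomeres. Without S18 and S20 the 4-cell median SD of the canonical members was 0.39, close to the 8-cell value of 0.40, and the 212 abundant genes came to 0.40. Several members that were abundant elsewhere were at or near 0 in S18. Rpl12, Rpl31 and Rps20 had no read there and medians of 160, 129 and 330 FPKM over all 4-cell blastomeres, while Rpl36, Rps12 and Rpl10a were at 0.256, 0.202 and 0.125 FPKM. In total 9 canonical members were under 1 FPKM in S18 and 3 in S20. Apart from the X-linked genes in S13 to S16, none of the 76 canonical members listed in both tables other than Rps27 and Rpl34 was under 1 FPKM in any other blastomere of either stage.

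The largest 4-cell SDs were those of Rps4x (3.57), Rpl39 (3.31) and Rpl36a (3.16), followed by Rpl10 (2.87). Without S13 to S16 the 4 X-linked members had SDs of 0.52 to 0.70. The most even members over all 4-cell blastomeres were Rpl4 with an SD of 0.31 and a range of 500 to 1228 FPKM, Rps3, at the entry of the messenger RNA channel, with 0.34 and 238 to 555 FPKM, and Rps23 of the decoding centre with 0.38 and 242 to 641 FPKM. Without S18 and S20 their SDs were 0.27, 0.33 and 0.37, and Rpl7a (0.23) and Rpl41 (0.24) lay below Rpl4. At the 8-cell stage the smallest SDs belonged to Rpl21 (0.24), Rpl5 (0.24) and Rps7 (0.27). The largest 8-cell SDs were those of the low members Rps27 (1.12), Rpl34 (0.88) and Rpl30 (0.80), which rest on few fragments. Rpl21 was among the even members at the 8-cell stage only, with 208 to 444 FPKM there and 6.98 to 377 FPKM at the 4-cell stage. Its 4-cell SD was 1.08, and 0.33 without S18 and S20. Its lowest 4-cell value was that of S18, and the next was 169 FPKM in S20.

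**Figure D4:**
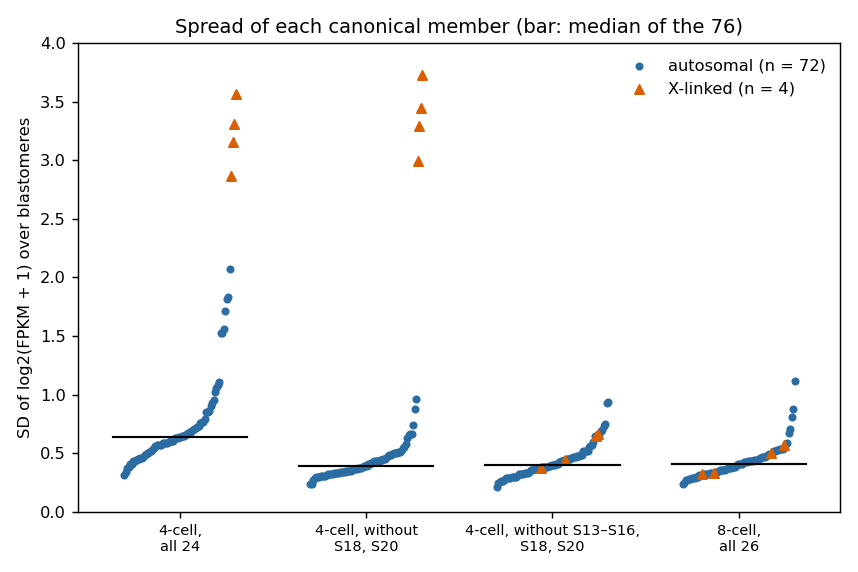
SD over blastomeres of log2(FPKM + 1) for each of the 76 canonical members, sorted within each column, with the median as a bar and the 4 X-linked members as triangles. The 4-cell median of 0.64 is 0.39 without S18 and S20, and the X-linked members stand at 2.87 to 3.57 with all 24 blastomeres, at 2.995 to 3.73 without S18 and S20, and at 0.37 to 0.66 without S13 to S16 as well.

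The members varied together. Among the 72 autosomal canonical members the median Pearson correlation of log2(FPKM + 1) between a pair of genes was 0.77 over the 24 4-cell and 0.70 over the 26 8-cell blastomeres. For pairs of the 899 other genes above 100 FPKM it was 0.22 and 0.05. Without S18 and S20 the 4-cell values were 0.66 and 0.07. These are descriptions, because the genes of a blastomere share a library, its depth and its FPKM denominator. Blastomeres of the same embryo were also not identified.

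The start sites of the members carried pyrimidine runs more often than those of other genes. RefSeq promoters of GRCm38.p6 were found for 67 of the 87 members, 56 of them canonical. A run of at least 8 bases of only C or T on the gene's strand, within 15 bases before and after the annotated start, was present in 23 of 56 canonical members (41.1%) and in 11.9% of all 27025 promoters. On the other strand the shares were 3.57% and 12.9%. Windows are shown for one highly and evenly expressed member, Rpl4, and for the low Rps27 with its abundant paralogue Rps27l, with the longest run in capitals.
Rpl4: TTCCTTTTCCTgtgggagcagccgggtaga
Rps27: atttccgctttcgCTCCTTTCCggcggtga
Rps27l: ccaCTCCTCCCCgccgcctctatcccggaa
These windows lie at chr9:64173372-64173401 on the plus strand, chr3:90213634-90213663 on the minus strand and chr9:66946071-66946100 on the plus strand. All 3 hold a run of at least 8 pyrimidines. The run of Rps27 begins 2 bases before the annotated start and spans it, whereas that of Rps27l begins 12 bases before the start and ends upstream of it. The run of Rpl4 also ends upstream of the start. It opens at the first base of the window, 15 bases before the start, so where it begins was not determined.

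Between the stages the members differed little. The log2 ratio of the 8-cell to the 4-cell median, with 1 FPKM added to both, had a median of 0.15 over the 87 members and ranged from -0.52 to 0.78. It was above 0 in 64 of the 87, beside 1975 of the 4162 genes whose stage medians average above 10 FPKM and 462 of the 975 above 100 FPKM. No member differed 2-fold in either direction, against 5.23% of all 13604 genes that were at least 2-fold higher and 9.78% that were at least 2-fold lower at the 8-cell stage. Among the 4162 genes above 10 FPKM these shares were 5.77% and 7.93%, and the median log2 ratio was -0.04. Such differences were rarer among the 975 genes above 100 FPKM, a level closer to that of the members. Of these, 21 were at least 2-fold higher and 23 at least 2-fold lower. The ranges of the stages overlapped for every member, as they did for all genes (0% apart).

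The members' median log2 ratio changed with the scaling, and so did that of other genes. With each blastomere scaled by its upper quartile, the median over the members was 0.04 and 48 of the 87 were above 0, and the genes above 10 FPKM had a median of -0.12. With median-of-ratios size factors the members' median was 0.22 and 66 were above 0, and the genes above 10 FPKM had a median of 0.02. Without S18 and S20 the members' median was 0.10 with 58 above 0, beside -0.08 for the genes above 10 FPKM. In each setting given with both medians, that of the members was the higher. Without S13 to S16 as well as S18 and S20, the members' median was 0.05 with 54 above 0.

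Of the canonical members, the highest 8-cell to 4-cell ratio was that of Rpl8, a protein close to the peptidyl transferase centre. It ranged from 21.1 to 595 FPKM with a median of 337 at the 4-cell stage and from 310 to 758 with a median of 579 at the 8-cell stage, a 1.71-fold difference (log2 0.78), and 23 of 26 8-cell blastomeres exceeded the 4-cell median. Rps4x followed with medians of 606 and 932 FPKM (log2 0.62, all 26 above the 4-cell median). Its ratio was 0.54 without S13 to S16, 0.58 without S18 and S20 and 0.44 without all 6. Rpl7 had medians of 835 and 1181 FPKM (log2 0.50). Rpl5, which joins Rpl11 and the small ribosomal RNA of the large subunit before assembly, had medians of 212 and 299 FPKM (log2 0.49, all 26 above the 4-cell median), and its ratio was 0.33 without S13 to S16, 0.38 without S18 and S20 and 0.26 without all 6. Rpl4, whose loop reaches into the exit tunnel, had medians of 848 and 1181 FPKM (log2 0.48). These 5 ratios stayed above 0 under every scaling tried.

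Among the canonical members, the 5 lowest ratios were those of Rps21, Rpl34, Rpl41, Rpl37 and Rplp2. Rps21 ranged from 78.9 to 511 FPKM with a median of 274 at the 4-cell stage and from 80.0 to 533 with a median of 208 at the 8-cell stage (log2 -0.40), and 7 of 26 8-cell blastomeres exceeded the 4-cell median. Rpl34 had a log2 ratio of -0.36, at levels under 4 FPKM. Rpl41 had a ratio of -0.30 and Rpl37, a zinc-binding protein of the large subunit, of -0.23, with medians of 295 and 251 FPKM. Rplp2, which forms the stalk with Rplp1 and Rplp0, had medians of 527 and 457 FPKM (log2 -0.21). Rplp1 and Rplp0 had ratios of 0.05 and 0.23, so the ratios of the stalk genes differed in sign. Rplp2 was at 0.03 when means of log2 values were compared in place of medians, and the other 4 ratios stayed below 0 under every scaling tried.

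The ratio followed the coding length. The 9 canonical members with at most 300 coding bases had a median log2 ratio of -0.19, the 24 with over 300 and up to 450 bases 0.15, the 21 up to 600 bases 0.16 and the 19 up to 900 bases 0.36. The 3 longest, Rpl3, Rpl4 and Rplp0, had 0.20, 0.48 and 0.23. Across the 76 genes the Spearman correlation was 0.49, and it was 0.44 to 0.58 with size factors, with the upper quartile, with means of log2 values, and without S18 and S20, without all 6, without S57 or without the columns named NA. Other genes showed a weaker relation of the same sign. For 893 genes above 100 FPKM the correlation was 0.25, with a median of -0.30 in the 55 of at most 300 coding bases and 0.07 in the 422 of over 900. Whether library preparation, RNA fragmentation or the gene lengths in the FPKM values take part in this was not tested.

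**Figure D5:**
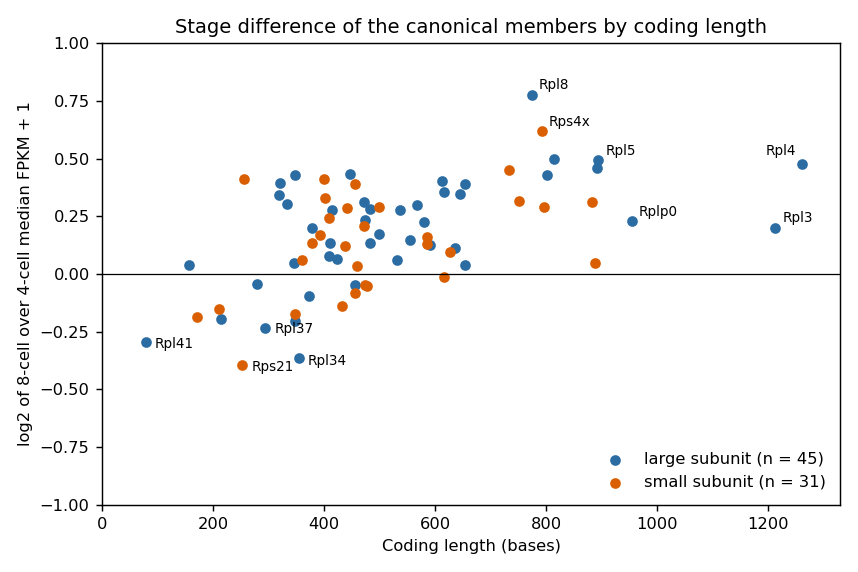
Stage difference of the 76 canonical members, as the log2 ratio of the 8-cell to the 4-cell median FPKM (1 added to both), against coding length in bases, with the subunits in colour. Members of at most 300 coding bases have a median of -0.19 and those of 600 to 900 bases a median of 0.36.

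By subunit, the median log2 ratio was 0.23 for the 45 large subunit genes, of which 37 were above 0, and 0.13 for the 31 small subunit genes, of which 22 were above 0. Among the paralogues, Rpl22l1 (0.50), Rpl10l (0.41), Rpl36al (0.11) and Rpl32l (0.03) had positive ratios, and Rpl39l (-0.27), Rps27l (-0.31), Rpl37rt (-0.40), Rps23rg1 (-0.22) and Rpl3l (-0.52) had negative ones. The name-only matches Rpl7l1 and Rps19bp1 had ratios of 0.06 and -0.41.

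Ribosomal proteins whose symbols fall outside the rule were at comparable levels. Fau, which encodes a small subunit protein joined to a ubiquitin-like sequence, had medians of 472 and 423 FPKM (log2 -0.16). Rack1, a scaffold on the head of the small subunit, had medians of 512 and 696 FPKM (log2 0.44), and 21 of 26 8-cell blastomeres exceeded the 4-cell median.

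Other genes of the translation machinery were compared in the same way. A list of 16 genes of translation factors and related messages was chosen as having a pyrimidine-rich start, which was not examined here. Their median SD was 1.42 in 4-cell and 0.37 in 8-cell blastomeres, and no other scaling was tried for this list. Of the 16, 15 had a higher 8-cell median, with a median log2 ratio of 0.56, and 3 were at least 2-fold higher. These were the elongation factors Eef2 (124 and 295 FPKM, log2 1.24) and Eef1b2 (86.4 and 179 FPKM, log2 1.04) and the initiation factor Eif4b (39.4 and 95.4 FPKM, log2 1.26). Of all genes, 5.23% were at least 2-fold higher and 9.78% at least 2-fold lower, and 1975 of the 4162 genes above 10 FPKM had a higher 8-cell median. Of 30 ribosome biogenesis genes, 18 had a higher 8-cell median and the median ratio was 0.13. Rrs1, a factor of large subunit assembly, was the one gene at least 2-fold higher (15.6 and 39.1 FPKM, log2 1.28), and none was 2-fold lower. The lowest ratio was that of Rrp9, a component of the small nucleolar particle that guides early cleavage (114 and 67.3 FPKM, log2 -0.75). The 78 mitochondrial ribosomal protein genes, which act in the organelle, had medians of 63.4 and 67.1 FPKM and a median log2 ratio of 0.07, with 3 at least 2-fold higher and 1 at least 2-fold lower. Their median SD was 1.67 in 4-cell and 0.92 in 8-cell blastomeres, against 0.64 and 0.40 for the canonical cytoplasmic members, whose levels are higher.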

How the data were processed

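Single blastomeres were sequenced with Smart-seq2 and Nextera XT as paired 100-base reads. The authors aligned them with STAR (2.5.1b in the submitters' processing notes) to mm10, kept uniquely aligned reads, counted them with HTSeq on Refseq genes and deposited FPKM values. The paper prints total and uniquely mapped reads for each labelled blastomere. Which gene lengths and totals entered the FPKM is not stated in the sources used here. No name among the 50 columns of the 2 gene tables matches a labelled sample (5 of the 8-cell columns are named NA). Columns were therefore used as unnamed blastomeres of their stage. In column order, the lowest and highest estimated 4-cell depths take the places of the lowest and highest lineage-resolved read totals in the paper. The shallowest 8-cell column, S57, likewise takes the place of the lowest lineage-resolved 8-cell total. This order was not tested, and no column was assigned by it. The planned tests of stage, lineage and embryo need columns matched to samples and were not run. The 2 repeat tables were not used.

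Entrez identifiers were matched to RefSeq of GRCm38.p6, with 15200 of 15218 and 15320 of 15342 found. Members and gene lists were chosen with earlier results of these data known. Rpl32l, Rpl37rt and Rps23rg1 were classed with the paralogues after the tables were read. Stage differences are log2 of the 8-cell over the 4-cell median, each with a pseudocount of 1, and a 2-fold difference was the call. Denominators were estimated from the FPKM that 1 fragment gives in genes with 1 curated transcript, tested on simulated data. Repeated windows were found with BLAST 2.17.0. No pair of columns was identical, and the highest correlation between columns was 0.89. Named genes were the 5 highest, 5 lowest, 5 most raised and 5 most lowered canonical members, the 3 most and least even per stage, all paralogues and name-only matches, and Fau and Rack1, except for some genes that are not reported here. Rpl10 and Rpl28 as examples of repeated windows, the members under 1 FPKM in S18, Rplp1, Rpl3 and Rpl7a were named after their values were seen. Python 3.11.15 with pandas 2.3.3 and Biopython 1.88 was used.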

Additional observations from a re-analysis of the deposited data

How the results depend on the processing

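The settings tried gave 241 values besides those that leave out 1 blastomere, and 233 stayed within the spread between blastomeres (for counts and SDs, within 1.5 times). That spread is wide, so a value within it can still have moved. The log2 ratio of Rps4x, 0.62 with medians and 2.07 with means of log2 values, counted as within. Leaving the 100 highest other genes out of the total gave median shares of 9.92% and 11.8% at the 4-cell and 8-cell stage. With a pseudocount of 0.1, 1 member, Rpl3l, was at least 2-fold lower at the 8-cell stage (log2 -2.41), where it is listed at 0 in most blastomeres. With means of log2 values in place of medians, 5 members were at least 2-fold higher, namely Rpl10, Rpl10l, Rpl36a, Rpl39 and Rps4x, of which 4 are the X-linked members that were near 0 in S13 to S16. The median 4-cell SD of the 87 members, 0.66, and its ratio to the 8-cell SD, 1.56, depended on S18 and S20, which were left out after seeing the data. Without them the values were 0.42 and 0.99, and without S13 to S16 as well 0.41 and 0.97. Dropping single blastomeres in turn gave 4-cell shares of 7.87% to 8.29%, 8-cell shares of 9.47% to 9.50% and a difference of 1.198 to 1.62 percentage points. The same gave a median log2 ratio of 0.12 to 0.19, 63 to 66 members above 0 and 0 members past 2-fold, SDs of 0.50 to 0.67 and 0.40 to 0.43, and a ratio of SDs of 1.18 to 1.66. Rpl39 changed its sign, with a log2 ratio of 0.04 over all blastomeres and -0.24 without the 6 blastomeres. Dropping single blastomeres already gave Rpl39 ratios of -0.13 to 0.23. The 5 columns named NA left the share at 9.31% and the median ratio at 0.10 when removed. No paired analysis was possible because no column could be assigned to an embryo. Fewer than 3 fragments cannot be told from 0, which limits Rps27, Rpl34, Rpl26 and Rpl3l.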
